A study of Mus musculus with 4 samples.

Results

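Noncoding transcripts of mouse alveolar macrophages, which clear surfactant and debris from the lung surface, were compared between the wild type (WT) and a knockout of Bach2 (Bach2KO). The array carried 587 probes of 480 RefSeq transcripts whose accession has the prefix for curated noncoding RNA. Members were chosen by the scanner's detection mark on these same arrays. After 32 probes of chromosomes X and Y were left out, 366 of the remaining 555 probes, for 303 transcripts, carried the mark for a signal well above background on each array of WT, of Bach2KO or of both, and were kept. The other 189 were below that filter. Of the 366 kept probes, 50 had an accession absent from the RefSeq gene table, so whether they lie on X or Y was not checked. The array as a whole held 39429 non-control probes, of which 27794 passed the same filter. The arrays compared were 2 of WT and 2 of Bach2KO RNA, taken from macrophages of 8 WT mice and of either 4 Bach2KO mice, as the treatment protocol states, or 3, as the series design states. Cells were pooled by genotype and sorted by flow cytometry, and the sources used here state neither the gate nor the age, sex, strain and Bach2 allele of the mice. The study asked about Bach2 in surfactant handling and macrophage function. Each genotype gave 1 RNA sample, which was divided in 2 before amplification and Cy3 labelling. Arrays of a genotype are therefore technical repeats. No replicate check of the genotype difference exists and no p-value is given, and an SD after ± covers 2 arrays of 1 RNA sample. All values below are log2 processed signals less the 75th percentile of their array, and a level of 0 is thus the 75th percentile. The call was made by size, with no test: each Bach2KO array had to lie 2-fold or more above (higher) or below (lower) each WT array, in all 4 pairings. For a dimmer genotype without the detection mark on both of its arrays, the lower bound of the fold had to pass 2-fold as well.

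Noncoding transcripts act as RNA. Some build nuclear bodies, as Neat1 does for paraspeckles, some silence imprinted neighbours in cis, as Kcnq1ot1 and Airn do, and others are the carriers from which microRNAs or small nucleolar RNAs (snoRNAs) are cut, while their spliced remains are often removed by nonsense-mediated decay. Transcribed pseudogenes are copies of coding genes that no longer give a full protein, and a probe for one may also bind the parent. Bach2, a repressor with a leucine zipper, pairs with small Maf proteins on Maf recognition elements, whose core is shared with AP-1 sites.

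The detection mark was carried by 27125 to 27918 probes per array, and no spot was saturated. The number of arrays and the single RNA sample per genotype limit the precision. The Bach2 probe was at the detection limit, at -6.32 and -6.28 in WT and -5.16 and -8.13 in Bach2KO, and gave no check of the labels. All 12 alveolar macrophage markers were measured, 5 of them were lower and none was higher in Bach2KO (Krt79, Siglecf, Fcgr1, Marco and Ear2), and their summed log2 signal was 9.97 to 10.14 in WT and 9.57 to 9.58 in Bach2KO. Of the 9 measured markers of monocytes and interstitial macrophages 4 were higher, C1qa, C1qb and C1qc among them, and 1 lower, with summed signals of 5.86 to 5.90 in WT and 6.04 to 6.05 in Bach2KO. Of 9 T cell markers 4 were higher and 1 lower, of 5 B cell markers 1 was higher, of 6 neutrophil markers 2 were higher and 1 lower, of 6 epithelial markers 2 were higher and 1 lower, and of 4 endothelial and 4 fibroblast markers 1 each was higher. The summed T cell signal was 5.94 to 5.95 in WT and 4.55 to 4.58 in Bach2KO and was carried by Cd2, at 5.77 in WT and 3.83 in Bach2KO, whereas the other 8 T cell markers had positive differences, with a list median of 0.64 that turns negative under spike-in scaling. Trac, Ms4a1, Ly6g and Krt8 had no measured probe. The part of other cells in the results below was not tested, and in a bulk sample fewer cells of a type and less RNA per cell cannot be told apart. All 4 arrays were on 1 slide, with each genotype at adjacent positions, and effects of position cannot be told apart from genotype.

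Among the 366 noncoding probes, 20 (5.46%) were higher and 25 (6.83%) were lower in Bach2KO, and 321 met neither condition. Over all 27794 probes past the same filter the shares were 6.86% higher and 6.3% lower. The shares of noncoding probes were thus near those of the array as a whole. The median difference, Bach2KO minus WT, was 0.16 for noncoding probes and 0.07 for all probes. The members were found through the same arrays: 18 probes passed through WT alone, 7 of which were called lower, and 20 through Bach2KO alone, 4 of which were called higher, and these had to be dim in the other genotype. Among the 328 noncoding probes well above background on all 4 arrays, 16 were higher (4.88%) and 18 lower (5.49%). Of all probes under that condition, 5.63% were higher and 5.69% lower. Just inside the filter lay Wt1os, whose brighter genotype averaged -6.26, and just outside lay C530005A16Rik, at -5.09 but above background on 1 WT array only. Repeat arrays of 1 genotype differed 2-fold or more for 5 of 366 noncoding probes in WT and 8 in Bach2KO. How many of all probes had no overlap between the arrays of the genotypes was not counted. Where a lack of overlap is given below, it describes the technical arrays only.

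The direction of small differences depends on the scaling. With 9 spike-in probes as the reference, the median of all probes moved from 0.07 to -0.66, and the calls became 2 higher and 71 lower. Of all probes past the filter, 3.11% were then higher and 21.3% lower. Under that scaling the 25 lower calls were kept and of the 20 higher calls only 1700069L16Rik and 4930567H12Rik were. That scaling shifts every mean difference downward, so it is no check of the lower calls. Background correction by normexp adds an offset and so shrinks the folds of dim probes. With it, 11 noncoding probes were higher and 9 lower, beside 4.61% and 3.51% of all probes. The calls kept under it were G630025P09Rik, 6330407A03Rik, Rps4l, Gm4759, NR_033146, Neat1 and the brighter probes of Kcnq1ot1 and Snhg16 among the lower, and 1700069L16Rik, 4930567H12Rik, NR_027875, Gpr137b-ps, Terc, 4833418N02Rik, the pair of H2-K2 probes and the 3 probes of NR_002860 among the higher. Every difference below is given on the 75th percentile scale.

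**Figure D1:**
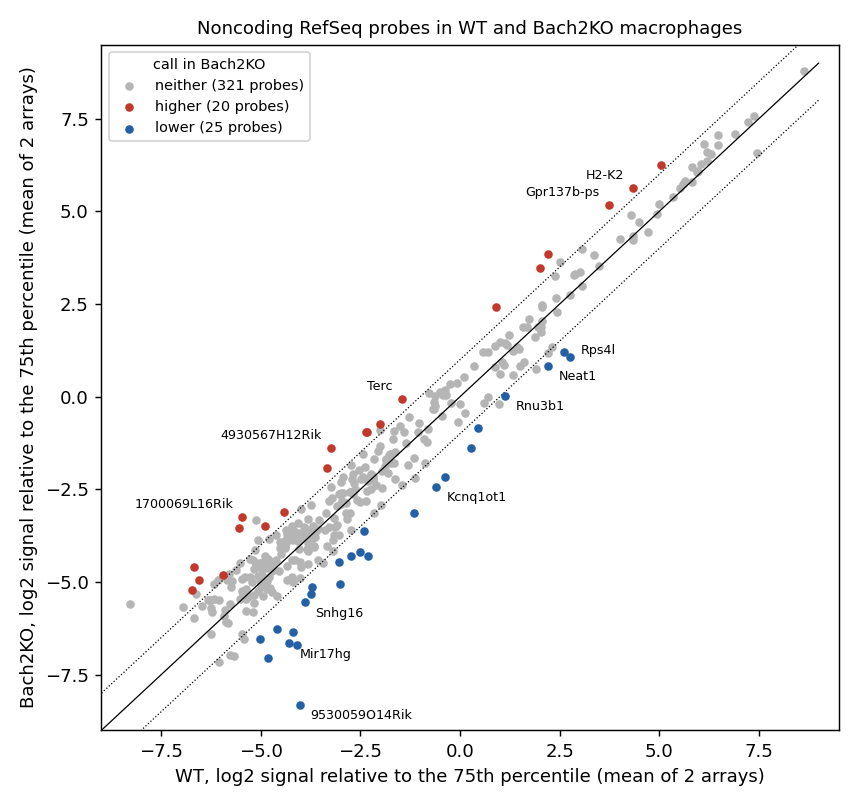
Mean log2 signal over 2 arrays, relative to the 75th percentile of each array, in WT (horizontal axis) and Bach2KO (vertical axis) for the 366 noncoding probes, with 20 higher probes in red, 25 lower probes in blue and 321 others in grey. The solid line marks equal signal and the dotted lines 2-fold; most called probes lie at low signal, with Neat1 and Rps4l among the brighter lower probes and H2-K2 and Gpr137b-ps among the brighter higher probes, which under spike-in scaling keep their sign but no longer reach 2-fold.

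Hosts of microRNAs were led by Mir17hg, the transcript of a microRNA cluster that is known to promote proliferation and restrain apoptosis. Mir17hg (NR_029382) read -4.57 and -4.02 in WT and -6.31 and -7.01 in Bach2KO. Both WT arrays were above both Bach2KO arrays, where the probe was not well above background, so its level was at least 3.43-fold lower in Bach2KO. Mir17hg passed the filter through WT alone, and with normexp its difference was -0.41 and the call was lost. The gene model in the RefSeq table holds the hairpin of miR-92a-1, and the hairpins of the other 5 members lie just before it on the same strand. The mature sequences of the cluster are shown here from RefSeq because the host probe does not measure them and they are what the transcript encodes; capitals mark the seed, bases 2 to 8.

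mmu-miR-17-5p: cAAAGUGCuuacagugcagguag
mmu-miR-20a-5p: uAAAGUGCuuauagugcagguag
mmu-miR-18a-5p: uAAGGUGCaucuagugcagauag
mmu-miR-19a-3p: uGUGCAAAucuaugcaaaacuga
mmu-miR-19b-3p: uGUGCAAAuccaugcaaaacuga
mmu-miR-92a-3p: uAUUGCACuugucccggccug

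By seed, miR-17 and miR-20a share AAAGUGC, miR-19a and miR-19b share GUGCAAA, and miR-18a and miR-92a each have their own. The mature microRNAs themselves were not measured. According to the RefSeq models, 11 kept transcripts enclosed a microRNA gene, and of these Mir17hg was the single one called, with the others between -0.79 and 1.02. That is 9.09% of the 11 probes lower, beside 6.3% of all probes. Dleu2, host of miR-15a and miR-16-1, read -1.82 and -2.12 in WT and -2.11 and -1.91 in Bach2KO, so the genotypes overlapped. Mir22hg, host of miR-22, read -2.21 and -2.27 in WT and -2.55 and -2.41 in Bach2KO, a difference of -0.24. These hosts encode other seeds, as their mature forms show.

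mmu-miR-15a-5p: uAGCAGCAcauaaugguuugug
mmu-miR-16-5p: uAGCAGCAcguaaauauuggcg
mmu-miR-22-3p: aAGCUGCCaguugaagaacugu

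Mirg, which carries microRNAs of the imprinted Dlk1-Dio3 region, differed by 0.54 with all signals between -4.42 and -3.69. Dnm3os, host of miR-199a-2 and miR-214, read -5.20 and -5.11 in WT and -4.18 and -4.11 in Bach2KO. Its difference of 1.02 fell short of the rule because the closest pair of arrays differed by 0.94. The machinery that cuts and loads microRNAs was fixed as a list of 12 proteins, all measured. Of these, Ago2, the Argonaute that slices targets, was higher, at 0.79 and 0.74 in WT and 1.96 and 1.98 in Bach2KO, a 2.31-fold difference that under spike-in scaling was below 2-fold, and none of the other 11 was called. Over all genes 8.36% were higher and 5.9% lower.

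Hosts of snoRNAs make RNAs that guide modification or cutting of ribosomal RNA. According to the RefSeq models, 12 kept transcripts, with 13 probes, enclosed a snoRNA gene, and the 2 probes called were those of Snhg16, both lower. That is 15.4% of the 13 probes lower, beside 6.3% of all probes. Snhg16 (NR_027821), which carries Snord1a, Snord1b and Snord1c, read 0.49 and 0.43 in WT and -0.83 and -0.86 in Bach2KO with its brighter probe, a 2.46-fold lower level. The dimmer probe read -4.02 and -3.77 in WT and -5.71 and -5.39 in Bach2KO and was 3.15-fold lower. The genotypes did not overlap with either probe, as the call requires. Just short of the rule lay 2410006H16Rik, host of Snord49a, Snord49b and Snord65, with 2.23 and 2.19 in WT and 1.14 and 1.24 in Bach2KO. Its mean difference was -1.02, and the closest pair of arrays differed by -0.95. Snhg7, Snhg1, Snhg12 and Dancr differed by -0.68, -0.55, -0.39 and -0.38. For 1110038B12Rik, 4833422C13Rik and 5730522E02Rik the differences were -0.27, -0.13 and -0.27. Snhg3, Snhg6 and Snhg17 differed by 0.31, 0.38 and 0.43, which turn negative under spike-in scaling. The host group thus spanned both signs, from -1.65 to 0.43, with a median of -0.38. Snhg10, a snoRNA host by name, encloses a microRNA gene and no snoRNA gene in these models. It is not in that group and differed by -0.20.

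Proteins of the snoRNA particle were read as a list of 13, all measured. Nufip1, an assembly factor of these particles, was lower, at -1.03 and -1.14 in WT and -2.43 and -2.37 in Bach2KO. None of the other 12 was called, and over all genes 8.36% were higher and 5.9% lower. The median difference of the 13 was -0.41. The catalytic subunits fibrillarin (Fbl) and dyskerin (Dkc1) differed by -0.44 and -0.73. Since spliced snoRNA hosts are known targets of nonsense-mediated decay, 12 genes of that pathway were read too. None of the 12 was called, and Smg5 and Casc3, the brightest, differed by -0.08 and -0.63.

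Nuclear body RNAs gave 1 lower call. Neat1 (NR_003513), the scaffold of paraspeckles, read 2.26 and 2.18 in WT and 0.78 and 0.89 in Bach2KO. The level was 2.60-fold lower in Bach2KO, with means of 2.22 ± 0.06 (SD, n = 2 arrays) and 0.84 ± 0.08 (SD, n = 2 arrays). This probe was bright, and the call held under the normexp correction. It was also kept under spike-in scaling, which shifts every mean difference downward and so is no check of a lower call. Malat1 (NR_002847), the RNA of nuclear speckles encoded next to Neat1, read 0.07 and -0.16 in WT and -0.73 and -0.62 in Bach2KO. The Malat1 arrays of the genotypes did not overlap, and the difference of -0.63 was below 2-fold. Frmd8, the nearest protein-coding gene of Neat1, differed by -0.58. None of 8 paraspeckle proteins was called. Nono, which binds Neat1, read 4.08 and 3.95 in WT and 3.81 and 3.77 in Bach2KO, a difference of -0.23. Miat, another nuclear RNA, stayed dim on all arrays, between -5.46 and -4.77.

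Of the listed structural RNAs of enzymes and particles, the telomerase RNA alone was called. Terc (NR_001579), the template of telomerase, read -1.45 and -1.48 in WT and -0.24 and 0.10 in Bach2KO. It was 2.62-fold higher in Bach2KO, and under spike-in scaling the difference stayed positive but the call was lost. Dkc1, Nhp2, Nop10 and Gar1, which bind Terc as well as snoRNAs, differed by -0.73, 0.27, 0.11 and -0.60, none of them called. Rmrp, the RNA of RNase MRP, differed by 0.32 and Rpph1, that of RNase P, by 0.50, both with array pairs as close as 0.00 and 0.19. The 10 measured proteins of those enzymes held no call, and Pop7 and Pop5, the brightest, differed by -0.02 and -0.06. Rnu12, the U12 RNA of the minor spliceosome, read 2.43 and 2.38 in WT and 2.61 and 2.71 in Bach2KO.

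Among the other small RNAs, the U3 RNA alone was called. Rnu3b1 (NR_004415), a U3 RNA of ribosomal RNA processing, read 1.25 and 1.03 in WT and 0.02 on both Bach2KO arrays, a 2.17-fold lower level. This call was lost with quantile normalization, with the deposited values and with normexp. Rnu1b6, a U1 RNA of the spliceosome, read 2.12 and 1.70 in WT and 0.66 and 0.81 in Bach2KO. Rnu2-10, a U2 RNA, read -0.96 and -1.32 in WT and -2.20 and -2.21 in Bach2KO. Both lay below in Bach2KO on every array, by -1.18 and -1.07, and did not meet the rule, since their closest pairs of arrays differed by -0.89 and -0.88. Copies of these RNAs are near identical, so which copy a probe reads is uncertain. Rn28s1, Rprl2, Rnu7 and Snora74a differed by 0.69, 0.48, 0.04 and -0.13, of which the positive values turn negative under spike-in scaling. In all, 1 of 13 small or structural RNAs was higher and 1 was lower. That is 7.69% each way, beside 6.86% higher and 6.3% lower of all probes.

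Imprinted noncoding RNAs were called at 1 locus. Kcnq1ot1 (NR_001461), a paternally expressed antisense RNA that silences genes around Kcnq1, read -0.62 and -0.58 in WT and -2.43 and -2.44 in Bach2KO with its brighter probe. This was 3.57-fold lower in Bach2KO. A dimmer probe gave -2.81 and -2.67 in WT and -4.64 and -3.97 in Bach2KO, 2.96-fold lower, so both probes were called. Kcnq1 itself was below the filter. Cdkn1c, a growth inhibitor of the same imprinted domain that was picked after its values were seen, read -4.04 and -4.08 in WT and -3.01 and -3.04 in Bach2KO. Its difference of 1.04 was not called and is smaller under spike-in scaling. A link to Kcnq1ot1 was not tested.

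Airn, the antisense RNA that silences Igf2r on the paternal copy, gave unlike values with its probes. The brighter probe read between -1.10 and -0.92 over the 4 arrays, with a difference of 0.10 that turns negative under spike-in scaling. The dimmer probe was not well above background in WT, at -8.10 and -8.47, and read -5.54 and -5.64 in Bach2KO, at least 1.69-fold higher, which was short of the rule. The Igf2r probe, for the receptor that carries lysosomal enzymes and takes up Igf2, read -5.25 on both WT arrays and 2.22 and 2.23 in Bach2KO. That is a 179-fold higher level from 1 probe, beside the 0.10 of the brighter Airn probe. Peg13, an imprinted RNA within Trappc9, differed by -0.07, and Nctc1, beside Mrpl23, by 0.15. Gnasas1, an antisense RNA of the imprinted Gnas locus, read -5.08 and -5.19 in WT and -1.53 and -5.11 in Bach2KO. Its mean difference of 1.81 rests on 1 Bach2KO array, and without that array the Bach2KO value lies among those of WT.

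Long noncoding RNAs known from other cells were largely below the rule. Pvt1 (NR_003368), encoded next to Myc, read 1.07 and 0.87 in WT and -0.26 and -0.12 in Bach2KO with 1 probe, and 0.19 and 0.05 against -0.49 and -0.39 with the other. The genotypes did not overlap, and the larger difference, -1.16, missed the rule by 1 pair of arrays at -0.99. Myc read 0.17 and 0.27 in WT and -0.55 and -0.53 in Bach2KO, and was not called.

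Norad (NR_024329), which binds Pumilio proteins and protects chromosome number, was read by 4 probes whose differences ran from 0.44 to 0.88. All 4 were above WT on every pair of arrays, none was called, and the probe at 0.44 and that at 0.62 turn negative under spike-in scaling. The brightest read 2.39 on both WT arrays and 3.25 and 3.28 in Bach2KO. Tug1 differed by -0.57, -0.27 and -0.13 with 3 probes. Morrbid, which restrains Bcl2l11 in short-lived myeloid cells, read -2.21 and -2.24 in WT and -2.12 and -2.03 in Bach2KO, and Bcl2l11 differed by -0.54. Mirt1 differed by -0.07 and -0.17, and Emx2os by 0.17. Of the 14 probes of known long noncoding RNAs in this last list, none was called, beside 6.86% higher and 6.3% lower of all probes.

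**Figure D2:**
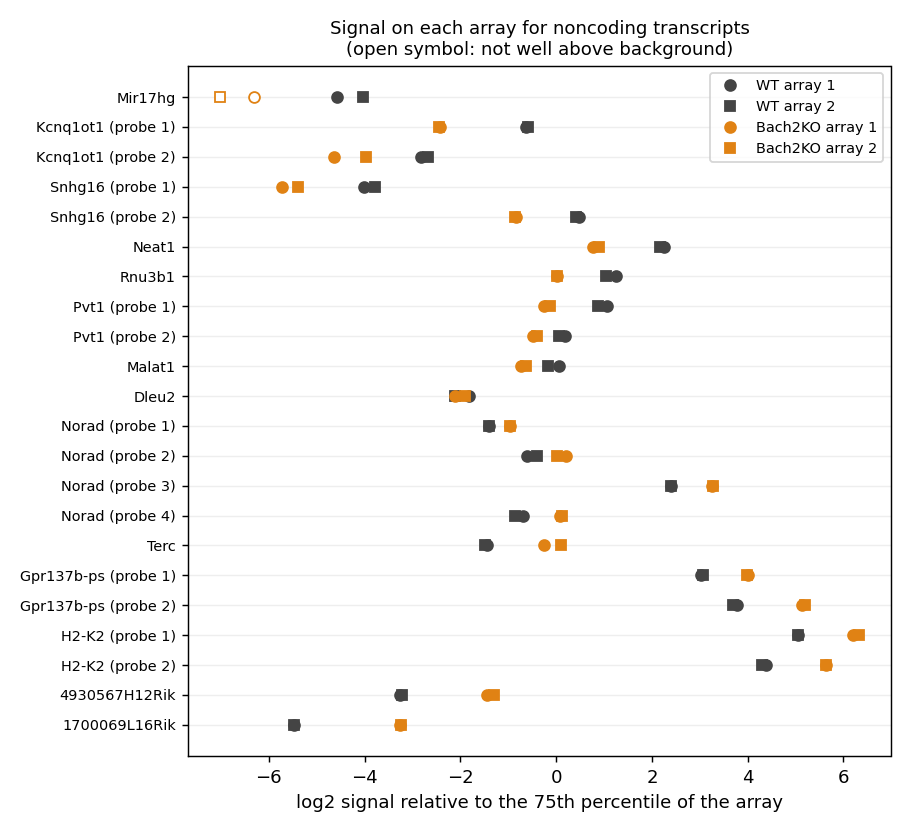
Log2 signal on each of the 4 arrays, relative to the 75th percentile of the array (horizontal axis), for 14 noncoding transcripts (vertical axis, probes of a transcript on separate lines), with WT in grey, Bach2KO in orange, circles for array 1 and squares for array 2; open symbols are not well above background. The 2 arrays of a genotype nearly coincide for Neat1, Snhg16 (brighter probe) and H2-K2 and lie clear of the other genotype, while for Dleu2 the genotypes overlap; the Norad probes at 0.44 and 0.62 would turn negative under spike-in scaling.

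The largest lower values came from RNAs with no assigned function. For 9530059O14Rik (NR_015610) the signal was -4.02 and -4.03 in WT and -8.39 and -8.24 in Bach2KO, where it was not well above background, at least 4.15-fold lower. For 1700030C10Rik (NR_015521) it was -4.08 and -4.12 in WT and -6.86 and -6.55 in Bach2KO, at least 3.94-fold lower. Both passed the filter through WT alone, as did Gm7854 and Gm3414, so a dim Bach2KO signal was part of their selection. With normexp 9530059O14Rik and 1700030C10Rik differed by -0.76 and -0.62, and no RNA of this paragraph was called. Gm7854 was at least 2.79-fold lower. Gm3414 was at least 2.10-fold lower, a call that was lost without WT array 2 and without Bach2KO array 1.

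Among lower RNAs detected on every array, G630025P09Rik (NR_027913), which overlaps Tmem102, read -1.08 and -1.22 in WT and -3.16 and -3.11 in Bach2KO, 3.96-fold lower. Tmem102 differed by -0.32. 6330407A03Rik (NR_028126) overlaps Lyn, a Src family kinase of myeloid cells. It read -0.40 and -0.38 in WT and -2.17 on both Bach2KO arrays, 3.44-fold lower, whereas Lyn differed by -0.38. 2010016I18Rik, which overlaps Dennd2d, was 3.18-fold lower, and Dennd2d differed by 0.37. A630089N07Rik, D030028A08Rik and 5033406O09Rik were 2.70-fold, 2.65-fold and 2.34-fold lower.

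Among higher RNAs, 1700069L16Rik (NR_033216) read -5.47 on both WT arrays and -3.26 and -3.23 in Bach2KO, 4.67-fold higher. Its nearest coding gene, Ficd, an enzyme of the endoplasmic reticulum that modifies the chaperone BiP, differed by 1.02 and was not called. 4930567H12Rik (NR_015535) read -3.26 and -3.22 in WT and -1.45 and -1.31 in Bach2KO, 3.63-fold higher. These were the higher calls kept under spike-in scaling. 4933406I18Rik was 4.01-fold higher, from -5.48 and -5.61 in WT to -4.25 and -2.84 in Bach2KO, so its Bach2KO arrays lay far apart. Its neighbour Pde3b, a phosphodiesterase that breaks down cyclic AMP, differed by 0.49. 4833418N02Rik, 1700020N01Rik and 2900052N01Rik were 2.62-fold, 2.66-fold and 2.42-fold higher. Gm10941 read -5.89 and -6.00 in WT, where it was well above background on array 2 only, and -4.88 and -4.72 in Bach2KO. It was called higher, and the call was lost with median scaling, quantile normalization, spike-in scaling and normexp. AW011738 was not well above background in WT and was at least 2.64-fold higher.

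Transcribed pseudogenes gave 6 higher (5.77%) and 4 lower (3.85%) calls over 104 probes of 77 genes, beside 6.86% and 6.3% of all probes. H2-K2 (NR_004446), a pseudogene of class I histocompatibility antigens, read 5.05 and 5.04 in WT and 6.19 and 6.32 in Bach2KO with 1 probe, and 4.39 and 4.30 against 5.63 on both Bach2KO arrays with the other. It was 2.31-fold and 2.45-fold higher, the former call being lost with quantile normalization, and its sequence is close to functional class I genes. H2-K1, picked after its values were seen, was 2.37-fold higher with each of its probes, and H2-D1 differed by 0.93. These probes may bind each other's transcripts.

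Gpr137b-ps (NR_003568), a copy of the lysosomal membrane protein gene Gpr137b, read 3.78 and 3.70 in WT and 5.14 and 5.19 in Bach2KO with 1 probe, 2.68-fold higher. The other probe differed by 0.94 and was not called. The parent gene Gpr137b was also higher, at 3.42 and 3.40 in WT and 4.44 and 4.43 in Bach2KO. Gm6042 was 2.68-fold higher and Btnl5-ps, a butyrophilin-like pseudogene, 2.50-fold higher with 1 probe, while its other kept probe differed by 0.72 and was not called. Gm6455 was at least 2.18-fold higher, a call that was lost without WT array 2, without Bach2KO array 2 and with quantile normalization.

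On the lower side, Rps4l (NR_003634), a copy of a ribosomal protein gene, read 2.76 and 2.78 in WT and 1.07 and 1.04 in Bach2KO, 3.27-fold lower. Tmtc1, which it overlaps, differed by 0.48. Gm4759 read 0.21 and 0.36 in WT and -1.29 and -1.46 in Bach2KO, 3.17-fold lower. Gm6402 read -4.58 and -3.82 in WT and -5.88 and -6.84 in Bach2KO, where it was well above background on array 1 only, and was called lower. Smarca5-ps, a copy of a chromatin remodelling ATPase gene, was 3.97-fold lower with its dimmest probe, from -2.37 and -2.26 in WT to -4.37 and -4.25 in Bach2KO. Its other probes differed by -0.77 and -0.73, close to the parent Smarca5 at -0.92, and were not called.

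Transcripts marked as antisense or opposite-strand by symbol or gene type, 24 in all, gave 1 call each way. That is 4.17% each, beside 6.86% higher and 6.3% lower of all probes. Kcnq1ot1 and Airn, antisense RNAs without such a mark, are not among the 24. Mccc1os (NR_029456), on the strand opposite the mitochondrial carboxylase subunit gene Mccc1, read -4.93 and -4.73 in WT and was not well above background in Bach2KO, at -6.82 and -7.25. It passed the filter through WT alone, was at least 2.37-fold lower and lost its call with normexp. Mccc1 itself read 0.80 and 0.62 in WT and 1.28 and 1.26 in Bach2KO. Zfhx2os (NR_004444) read -4.60 on both Bach2KO arrays and -7.19 and -6.14 on the WT arrays, the latter alone well above background. It was called higher, while the coding gene Zfhx2 differed by -0.24. Neither partner followed its antisense transcript past 2-fold.

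The reverse was seen for Stk35, a kinase gene, which was 2.40-fold lower while Stk35os1 differed by -0.26. Slc13a2, a dicarboxylate transporter gene, was 2.19-fold lower while Slc13a2os differed by 0.81. Dio3os, Foxl2os, Foxd2os and Dlx6os2 differed by 0.62, 0.51, 0.56 and 0.53, beside 1.11, 1.04, 0.61 and 0.87 for Dio3, Foxl2, Foxd2 and Dlx6, and none of these 8 was called. On spike-in scaling those 4 antisense differences turn negative. Noncoding transcripts of 7 protein-coding genes, among them Prmt6 at -0.97 and -0.89, were read by 9 probes and held no call.

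**Figure D3:**
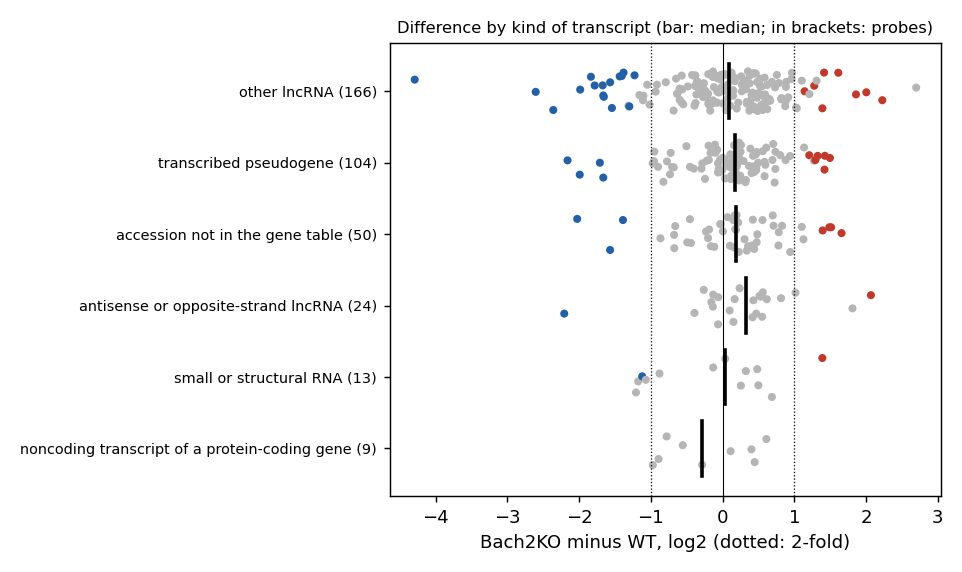
Difference in log2 signal, Bach2KO minus WT (horizontal axis), for each noncoding probe by kind of transcript (vertical axis, number of probes in brackets), with higher calls in red, lower calls in blue, medians as black bars and 2-fold as dotted lines. Calls occur in both directions in every kind except noncoding transcripts of protein-coding genes, which held none; the medians lie between -0.29 and 0.33, and those above 0 turn negative under spike-in scaling.

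Long noncoding RNAs not marked as antisense or opposite-strand made up the largest group, with 166 probes of 145 genes. The group is not separate from the RNAs above, since it includes Neat1, Mir17hg, Snhg16 and Kcnq1ot1 with their lower calls. Of the 166 probes 8 were higher (4.82%) and 16 lower (9.64%), beside 6.86% and 6.3% of all probes. Among the 146 well above background on all 4 arrays, 6 were higher (4.11%) and 11 lower (7.53%). Of all probes under that condition, 5.63% were higher and 5.69% lower. Another 50 probes of 35 accessions had no entry in the gene table, so their chromosome is not known here, and are given by accession only. Of these, NR_002860 was called higher by all 3 of its probes, which differed by 1.49, 1.51 and 1.66. The brightest read 2.19 and 2.21 in WT and 3.85 and 3.87 in Bach2KO. NR_027875 was 2.63-fold higher with 1 probe, while its other probe differed by 0.94 and was not called. NR_033146, at 2.63 and 2.58 in WT and 1.21 and 1.22 in Bach2KO, was 2.62-fold lower.

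Several probes were kept for 52 transcripts, and all probes of a transcript had the same call for 46 of them. Of the 10 transcripts with a called probe, 4 had the same call by every probe, namely Kcnq1ot1, Snhg16, H2-K2 and NR_002860. No transcript had probes called in opposite directions. The widest spread was that of the uncalled Airn probes, at 0.10 and 2.70. Of transcripts with a called probe, NR_002840, whose 3 probes ran from -2.03 to 0.20, and NR_026976, whose probes gave -1.57 and 0.19, were the most unlike, so that their lower calls rest on 1 probe each.

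**Figure D4:**
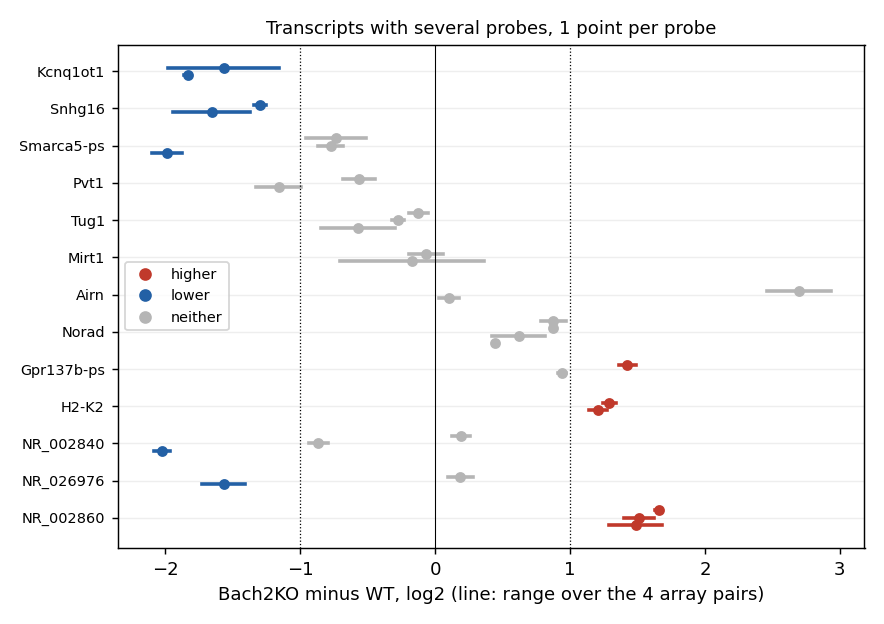
Difference in log2 signal, Bach2KO minus WT (horizontal axis), for 13 noncoding transcripts with several probes (vertical axis), 1 point per probe and a line for the range over the 4 array pairs, with higher calls in red, lower calls in blue, other probes in grey and 2-fold as dotted lines. The probes of Kcnq1ot1, Snhg16, H2-K2 and NR_002860 share a call, while those of NR_002840, NR_026976 and Airn lie far apart; under spike-in scaling positive differences shrink, and the brighter Airn probe and the Norad probes at 0.44 and 0.62 turn negative.

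The nearest protein-coding gene was measured for 199 noncoding genes. For the 9 called higher and the 13 called lower, no neighbour was called in either direction. Some lay near the rule. Tex14, which overlaps the lower Rnu3b1, differed by -1.27, but its bound was 1.89-fold. Ficd, beside the higher 1700069L16Rik, differed by 1.02. Of the neighbours of the 177 uncalled genes, 14 were higher and 9 lower. Among the 86 pairs that overlap, 12 had a called noncoding transcript, again with no called neighbour. Over the 199 pairs the differences had a Pearson correlation of 0.09 and a Spearman correlation of 0.16 across genes, which share the same 4 arrays and are not independent replicates. The share of all genes called was 8.36% higher and 5.9% lower. Among the uncalled noncoding transcripts with a higher neighbour were Airn, beside Igf2r, and Snhg17, at 0.43, beside Lbp, which binds bacterial lipopolysaccharide and was at least 3.56-fold higher.

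**Figure D5:**
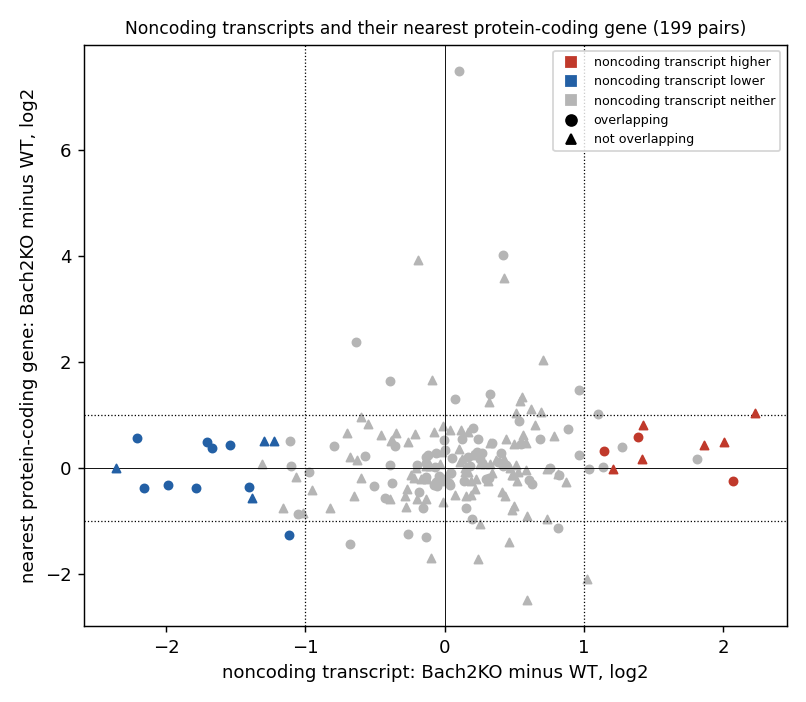
Difference in log2 signal, Bach2KO minus WT, of 199 noncoding genes (horizontal axis) and of their nearest protein-coding gene (vertical axis), coloured by the call of the noncoding transcript, with circles for overlapping and triangles for separate pairs and 2-fold as dotted lines. The 9 red and 13 blue points have no neighbour that met the rule; the point at the top is Airn with Igf2r, and differences of either axis that lie just above 0 turn negative under spike-in scaling.

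Promoters were searched for TGANTCA (its own reverse complement), the core of Maf recognition and AP-1 elements. Promoters ran from 250 bases before to 50 bases after the start in RefSeq (GRCm38.p6), on both strands, and 147 of the 266 named noncoding genes had 1 or more. TGANTCA occurred in 7 of their 169 promoters (4.14%) and in 7.81% of all 32851 promoters. It was found in 0 of 7 promoters of higher and in 2 of 13 promoters of lower members. A match is a description of letters and not a site. The promoters of the lower members with a match are shown, with the match in capitals, at chr12:111944433-111944732 on the minus strand for 5033406O09Rik and chr5:43235305-43235604 on the minus strand for Gm7854.

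5033406O09Rik: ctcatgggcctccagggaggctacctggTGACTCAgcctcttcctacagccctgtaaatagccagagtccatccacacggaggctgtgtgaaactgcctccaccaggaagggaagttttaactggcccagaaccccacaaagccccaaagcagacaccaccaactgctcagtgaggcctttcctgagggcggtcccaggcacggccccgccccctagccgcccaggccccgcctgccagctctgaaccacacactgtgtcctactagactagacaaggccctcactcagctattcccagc
Gm7854: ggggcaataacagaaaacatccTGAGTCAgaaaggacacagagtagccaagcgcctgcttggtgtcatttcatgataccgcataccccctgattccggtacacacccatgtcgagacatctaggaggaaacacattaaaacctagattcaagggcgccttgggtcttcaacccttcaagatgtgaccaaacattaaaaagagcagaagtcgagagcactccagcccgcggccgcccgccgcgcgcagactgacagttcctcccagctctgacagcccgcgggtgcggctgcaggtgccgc

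The matches begin at -222 and -228 from the start. Binding of Bach2 was not measured here. 5033406O09Rik read -2.41 and -2.40 in WT and -3.61 and -3.66 in Bach2KO. Gm7854 read -4.63 and -4.56 in WT and -6.42 and -6.10 in Bach2KO, where it was not well above background.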

How the data were processed

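Per the file headers, the intensity of each spot in the scanner files is linear and was background-subtracted and detrended within its array with version 10.7.3.1 of Agilent Feature Extraction; the submitters' processing notes give 9.1. The deposited value table holds log2 values, each column being the log2 processed signal minus a constant of its array. Its column medians were -3.58, -3.67, -3.53 and -3.45, and scale, direction and the absence of gene centring were settled by setting it against the scanner values. Control and outlier spots (109 to 136 of 43020 per array) were left out, spots of a probe averaged on the log2 scale and the 75th percentile subtracted (Python 3.11.15, pandas 2.3.3). A probe counted as well above background on an array where most of its spots had that mark. A bound set the brighter genotype's mean against, on each dimmer array, either the probe's signal there or, if higher, the detection floor (the lowest signal marked well above background). Symbols came from a RefSeq table (GRCm38.p6) by unversioned accession: 316 of 366 probes matched. The array was designed on mm9, so no gene coordinates from that table are given, and the promoters printed carry those of GRCm38.p6. Members and lists were chosen with earlier results of these data known. Named genes were all listed members past the filter, the 10 largest differences and 5 largest bounds each way, antisense partners or nearest coding neighbours, and up to 3 called or the 2 brightest partner proteins per list. Some genes of the lists or the rule are not reported here. Other called members and genes given beside them were added after their values were seen. Alternatives were other scalings (median, quantile, spike-in), normexp (limma 3.58.1, R 4.3.3), the deposited values, other filters and folds, kept outlier spots, 1 probe per gene, same-numbered pairs and leaving out each array. The placed-only count and crossed pairing were chosen after seeing the data.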

Additional observations from a re-analysis of the deposited data

How the results depend on the processing

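The counts, 20 higher and 25 lower, moved by over 1.5 times under 4 settings. They were 2 and 71 with spike-in scaling, 11 and 9 with normexp, 46 and 45 at 1.5-fold, and 3 and 10 at 3-fold. Over all probes the shares higher and lower were, in the same order, 3.11% and 21.3%, 4.61% and 3.51%, 13.0% and 13.1%, and 3.49% and 2.69%. The share of calls that were higher was 44.4%, against 2.74% with spike-in scaling and 55% with normexp. With median scaling, quantile normalization and the deposited values it lay between 39.5% and 45.5%. Leaving out each array in turn gave 21 to 30 higher and 24 to 30 lower. Of the 315 probes placed on a numbered chromosome, 16 were higher and 22 lower, beside 6.86% and 6.3% of all probes. No paired test was possible because 1 RNA sample per genotype was split. Using the same-numbered array pairs as a block gave 21 higher and 25 lower. All 45 calls had to be kept there, since those pairs are among the 4 of the rule. Deviations of same-numbered arrays correlated at -0.11 over all probes, and crossed numbers gave 21 and 28. No called difference of the 66 named probes changed sign under 11 settings. By the SD of the 2 technical arrays, the larger of the genotypes, 568 values moved by no more than that and 150 by more. The 568 are no measure of stability. The filter to all 4 arrays left values unchanged, and leaving out 1 array moves a difference by less than that SD in any case. Most called probes were dim, and signals near the lowest well above background, -6.56 to -5.98, carry little information.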

Other observations

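A pair of noncoding transcripts was picked after its values were seen, for what is known of them in macrophages. Mexis, an RNA encoded near Abca1 that is known to support its expression in macrophages, read -4.74 and -5.06 in WT and -4.34 and -4.28 in Bach2KO. The Abca1 probe, for the cholesterol exporter, read 1.60 and 1.70 in WT and -0.80 and -0.89 in Bach2KO, 5.63-fold lower. Mm2pr read -3.74 and -3.76 in WT and -3.08 and -2.79 in Bach2KO, and was not called. The difference of Mexis, 0.59, turns negative under spike-in scaling, and that of Mm2pr, 0.82, does not.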
